A study of Mus musculus with 6 samples.

Results

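The 10 genes described here encode the AMPA receptor of mouse neurons. They are the 4 pore-forming subunits *Gria1*, *Gria2*, *Gria3* and *Gria4* and the 6 auxiliary proteins *Cacng2*, *Cacng3*, *Cacng8*, *Cnih2*, *Cnih3* and *Shisa9*. They were picked by gene symbol, with no measured value in the rule, from the 55357 genes of the count files. All 10 were among the 21876 genes tested, which had at least 6 reads in at least 1 library. Their expression was compared between primary neuronal cultures in which *Pla2g4e*, a calcium-dependent N-acyltransferase, was knocked down and control cultures.

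The cultures were prepared from the cortex and hippocampus of C57BL/6N mouse embryos and carried the wild-type genotype in both groups. They were transduced at DIV4 with the same amount of lentivirus, carrying either a scrambled shRNA (shCtrl, n = 3) or an shRNA against *Pla2g4e* named sh2 (sh*Pla2g4e*, n = 3), and were collected at DIV14. Poly(A) RNA of the whole culture was sequenced from stranded libraries, and only 1 hairpin was used, so that an effect of *Pla2g4e* loss and another effect of that hairpin cannot be told apart. The labels number the libraries 1 to 3 in each group but do not say whether they came from separate preparations, and p-values therefore measure the spread between these samples, which may be technical.

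AMPA receptors are tetramers of the GluA subunits encoded by the *Gria* genes, and they carry most of the fast excitatory current at central synapses. The subunit mix sets the properties of the channel, since receptors that hold the edited GluA2 subunit pass little calcium. Auxiliary proteins bind the tetramer, carry it to the surface and the synapse, and slow or speed the closing of its pore. Transmembrane AMPA receptor regulatory proteins (TARPs, the *Cacng* genes), cornichons (the *Cnih* genes) and the cystine-knot protein CKAMP44 (*Shisa9*) are the main families of such partners in the forebrain.

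The libraries held between 17054717 and 23570180 counted reads, and the 10 genes held between 720 and 27252 reads each in a library. *Pla2g4e*, the targeted gene (chromosome 2, 119996893 to 120075816, minus strand, GRCm39), was read at 38.0, 35.1 and 35.4 reads scaled to a common library size (CPM) in shCtrl and at 21.8, 14.1 and 18.7 CPM in sh*Pla2g4e*, so that the libraries matched their labels. Its log2 fold change was −0.99 (SE 0.131; edgeR's quasi-likelihood test, Benjamini-Hochberg adjusted p = 1.24e-04). CPM values are scaled with the TMM factors throughout, and DEGs are genes with an adjusted p under 0.01. Of all genes tested 876 were down-regulated and 543 up-regulated, against 609 and 796 when the reads were scaled by library size alone. Markers of pan-neuronal identity summed to 4739 to 5657 CPM in a library and those of astrocytes to 1899 to 3630 CPM, while the 5 microglia markers tested summed to 2.59 to 7.73 CPM.

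None of the 10 AMPA receptor genes was a DEG. *Cacng8* and *Cnih2* were read higher in each sh*Pla2g4e* library than in any shCtrl library, with means 25.1% and 18.5% higher, and *Gria1* and *Gria3* were read lower in each, with means at 89.6% and 91.4% of those of shCtrl. Scaled by library size alone, the groups of *Gria1* and *Gria3* overlapped, at log2 fold changes of −0.08 and −0.05. Those of *Cacng8* and *Cnih2* were then 0.40 and 0.32. In these bulk cultures fewer cells of a type and less RNA per cell cannot be told apart. Bounds of the 95% intervals of the log2 fold changes ran from −0.45 to 0.52 over the 10 genes, and the SEs from 0.0768 to 0.0968. By edgeR, limma after voom and DESeq2 alike, 0 of the 10 passed an adjusted p of 0.01. With edgeR 6.49% of all genes tested passed (4% down-regulated, 2.48% up-regulated). Of the 10908 more abundant ones (mean log2 CPM not under 3), to which all 10 belong, 10.9% passed. Down-regulated and up-regulated were 925 and 503 genes with limma after voom and 1214 and 687 with DESeq2. At an unadjusted p under 0.05, edgeR gave 3 of the 10, *Cacng8* and *Cnih2* higher and *Cnih3* lower, against 25.7% of all genes tested and 37.1% of the more abundant ones, so that this count lay near its background.

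The same 3 genes passed once the replicate number was added to the model as a block. With it *Cacng8* and *Cnih2* were up-regulated (edgeR with the block, adjusted p = 0.00189 and 0.00281) and *Cnih3* was down-regulated (adjusted p = 0.00505). The block raised the share of DEGs among all genes tested to 15.5% (9.02% down-regulated, 6.5% up-regulated), and to 26% among the more abundant genes, so that 3 of 10 lay near that background. In TMM-scaled CPM the libraries of the groups did not overlap in 4 of the 10 genes, against 30% of all genes tested and 40% of the more abundant ones. The median log2 fold change of the 10 genes was 0.05, beside 0.03 for all genes tested and −0.02 for the more abundant ones. Of the 10 genes, 4 lay below 0 and 6 above, beside 5954 and 4954 of the more abundant ones.

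**Figure D1:**
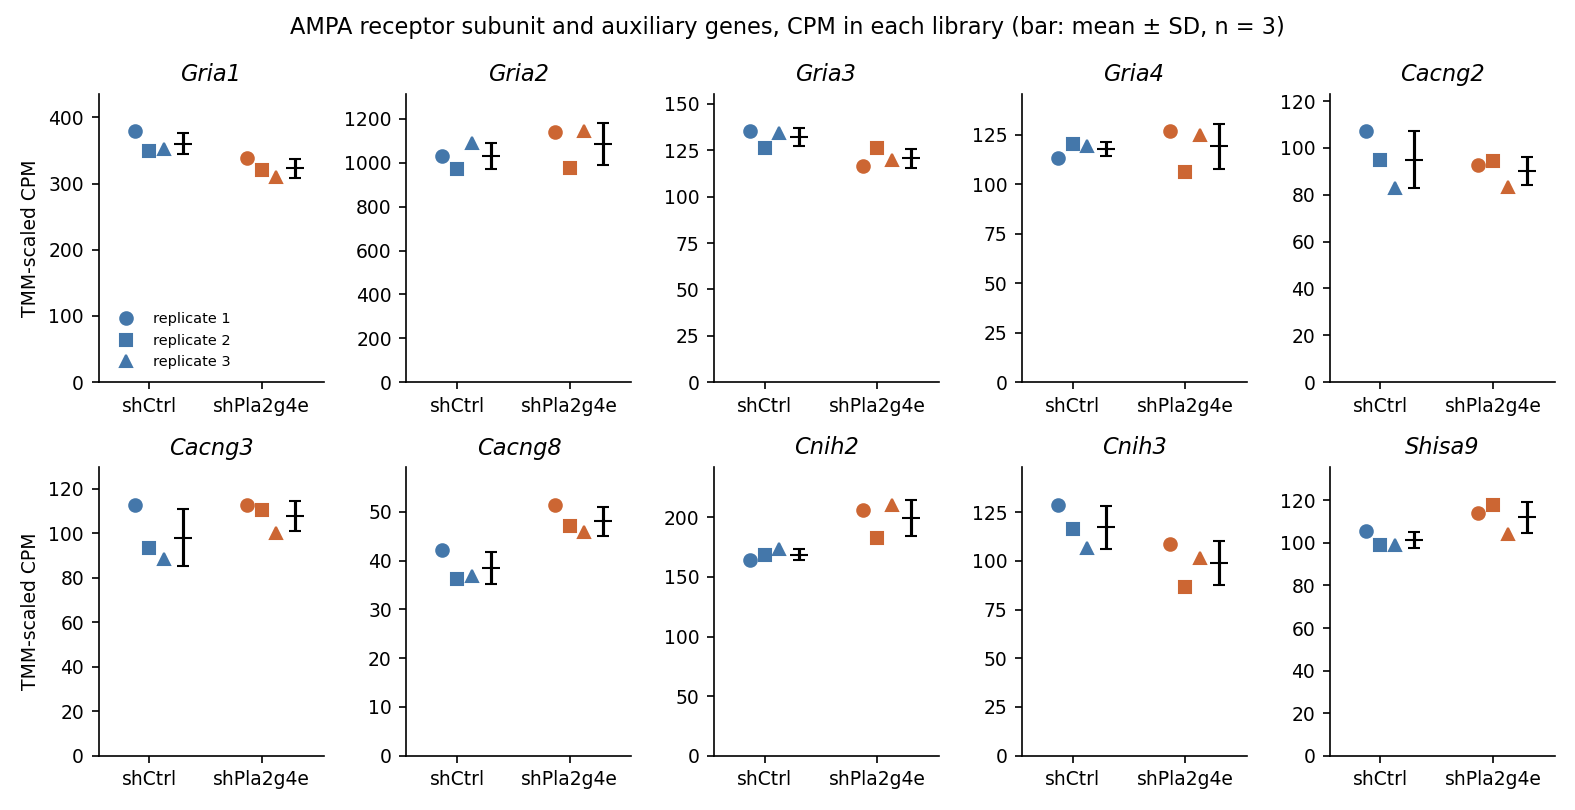
TMM-scaled CPM of the 10 genes in each of the 6 libraries, 1 panel a gene with its own axis from 0, marker shapes for the replicate number and bars for the mean ± SD of 3 libraries. *Cacng8* and *Cnih2* sit higher in all sh*Pla2g4e* libraries, *Gria1* and *Gria3* sit lower, and the other 6 genes overlap.

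Among the pore-forming subunits, *Gria2* had the most reads. *Gria2* (chromosome 3, 80588757 to 80710142, minus strand), which encodes GluA2, was read at 1029, 971 and 1089 CPM in shCtrl replicates 1 to 3 and at 1139.9, 975 and 1144 CPM in sh*Pla2g4e*. Replicate 2 was the lowest library of each group, and the groups overlapped. The mean went from 1030.0 ± 59.0 to 1086 ± 96.6 CPM (SD, n = 3), a log2 fold change of 0.08 with a 95% interval of −0.11 to 0.26 (edgeR, adjusted p = 0.647).

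*Gria1* (chromosome 11, 56902213 to 57221070, plus strand) encodes GluA1, the subunit best known for its activity-dependent delivery to synapses. It was read at 379, 349 and 352 CPM in shCtrl and at 339, 319.7 and 311 CPM in sh*Pla2g4e*. Every sh*Pla2g4e* library lay below every shCtrl library. The means were 360.2 ± 16.4 and 323 ± 14.3 CPM (SD, n = 3), and the log2 fold change of −0.16 (95% interval −0.32 to 0.01) did not pass the test (edgeR, adjusted p = 0.218). Within the numbered pairs, the log2 ratios were −0.16, −0.13 and −0.18.

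*Gria3* (chromosome X, 40489731 to 40767478, plus strand) encodes GluA3, which often pairs with GluA2. Its CPM was 135, 126.3 and 135 in shCtrl and 116, 126.2 and 119.7 in sh*Pla2g4e*. The groups did not overlap, but the lowest shCtrl and the highest sh*Pla2g4e* library, both replicate 2, were almost level. The log2 fold change was −0.13 (SE 0.0768, 95% interval −0.29 to 0.03; edgeR, adjusted p = 0.318).

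*Gria4* (chromosome 9, 4417896 to 4796234, minus strand) encodes GluA4, a subunit of early development and of interneurons. It was read at 113, 120.2 and 119.4 CPM in shCtrl and at 127, 106 and 125 CPM in sh*Pla2g4e*. The sh*Pla2g4e* libraries lay on both sides of the shCtrl libraries. The log2 fold change was 0.02 with a 95% interval of −0.16 to 0.20 (edgeR, adjusted p = 0.934), and its sign changed when 1 of several libraries was left out.

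To compare levels between genes, CPM was divided by the length of the merged exons in kilobases. On that scale the 4 subunits summed to 161, 152 and 161 CPM per kb in shCtrl and to 161, 145 and 157 CPM per kb in sh*Pla2g4e*, and the groups overlapped. Of this sum, *Gria2* made up 41.9% ± 1.38 in shCtrl and 45.2% ± 1.88 in sh*Pla2g4e* (SD, n = 3). *Gria1* made up 37.8% ± 1.42 and 34.6% ± 1.84, *Gria4* 11.8% ± 0.666 and 12.2% ± 0.560, and *Gria3* 8.48% ± 0.0617 and 7.96% ± 0.774. The shares of all 4 subunits overlapped between the groups. Within each numbered pair, however, the share of *Gria1* was lower in sh*Pla2g4e* (39.0% and 34.7%, 37.99% and 36.4%, 36.2% and 32.8%) and that of *Gria2* was higher (41.2% and 45.5%, 41.1% and 43.2%, 43.5% and 46.9%).

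The ratio of *Gria1* to *Gria2* per length was 0.947, 0.925 and 0.832 in shCtrl and 0.764, 0.844 and 0.698 in sh*Pla2g4e*. The highest sh*Pla2g4e* value, in replicate 2, lay above the lowest shCtrl value, in replicate 3, although the ratio was lower in sh*Pla2g4e* within each numbered pair. No test was made on these shares and ratios. These shares depend on the exon length that is used, because merged exons join alternative transcripts and the merged *Gria2* model is 15548 bases long. With the length of the longest coding transcript, *Gria2* made up 46.97% and *Gria1* 30.7% of the shCtrl sum, and *Gria3* (12.04%) stood above *Gria4* (10.2%) in place of below it. Counts per gene do not separate the flip and flop isoforms or edited from unedited *Gria2*.

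**Figure D2:**
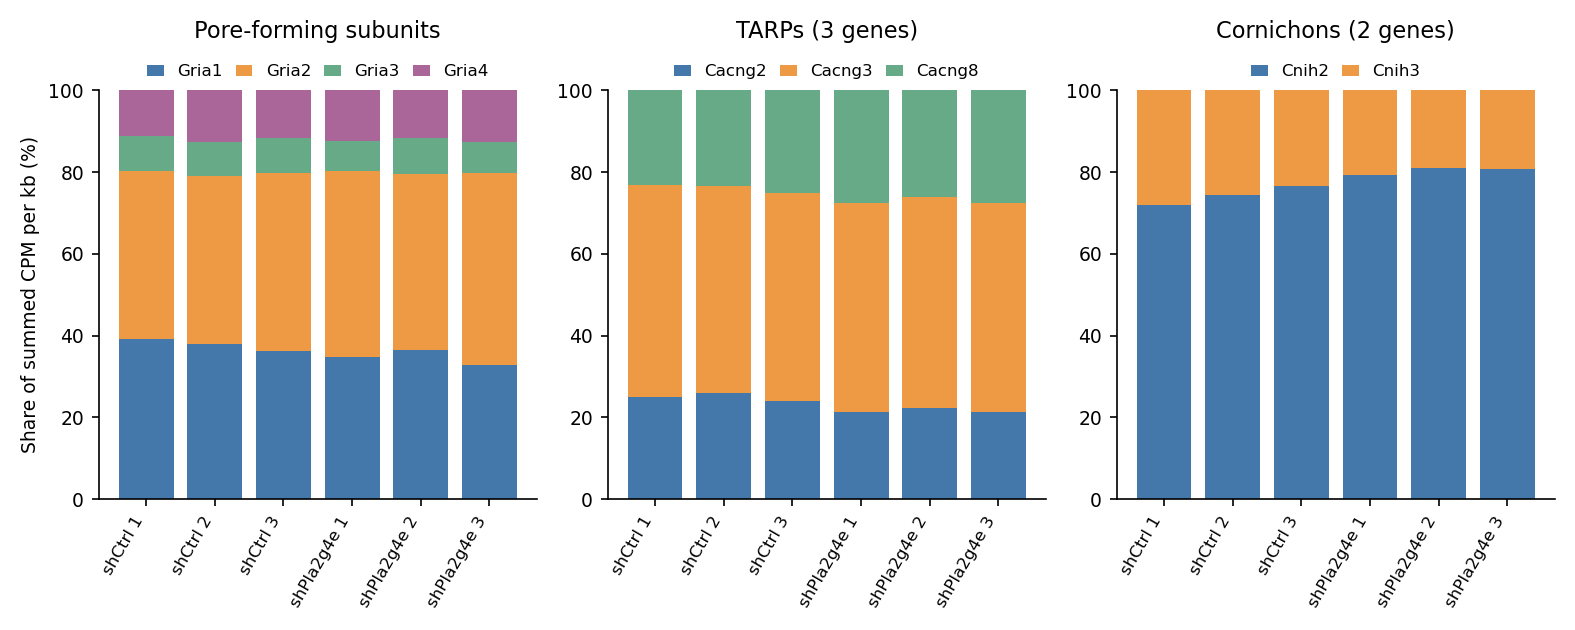
Share of the summed CPM per kb (merged exons, percent) in each of the 6 libraries for the 4 pore subunits, the 3 TARP genes and the 2 cornichon genes. The pore panel overlaps between the groups, while *Cacng8* and *Cnih2* take a larger share of their families in every sh*Pla2g4e* library.

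TARPs were represented by 3 genes, and in 1 of them, *Cacng8*, the libraries of the groups did not overlap. *Cacng8* (chromosome 7, 3439199 to 3464164, plus strand) encodes a TARP that is abundant in hippocampal neurons and holds AMPA receptors outside and inside the synapse. It was read at 42.3, 36.2 and 36.8 CPM in shCtrl and at 51.4, 46.98 and 45.8 CPM in sh*Pla2g4e*. Every sh*Pla2g4e* library was above every shCtrl library, and replicate 1 was the highest of each group. The mean went from 38.4 ± 3.32 to 48.1 ± 2.99 CPM (SD, n = 3), a log2 fold change of 0.32 (SE 0.0926, 95% interval 0.13 to 0.52).

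With edgeR the adjusted p of *Cacng8* was 0.0301, with limma after voom 0.0273 and with DESeq2 0.0286, all above the threshold of 0.01. Scaled by library size alone it passed (edgeR, adjusted p = 0.00778), as it did with the block. Within the numbered pairs the log2 ratios were 0.28, 0.37 and 0.31. The gene shares 3.88% of its exon bases with an overlapping gene on the same strand, where reads cannot be assigned to one of them.

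*Cacng2* (chromosome 15, 77875948 to 78004228, minus strand) encodes stargazin, the founding TARP, which ties AMPA receptors to PSD-95. Its CPM was 107, 94.9 and 82.8 in shCtrl and 92.6, 94.5 and 83.2 in sh*Pla2g4e*. The sh*Pla2g4e* libraries fell within the wider range of the shCtrl libraries, and the log2 fold change was −0.07 (95% interval −0.28 to 0.13; edgeR, adjusted p = 0.698). Scaled by library size alone the value was above 0, at 0.00296, and 5.86% of the exon bases overlap a gene on the opposite strand.

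*Cacng3* (chromosome 7, 122269715 to 122368616, plus strand) encodes a close relative of stargazin in cortical neurons. It was read at 113, 93.4 and 88.3 CPM in shCtrl and at 113, 110.4 and 100.1 CPM in sh*Pla2g4e*. Both groups had their highest library in replicate 1, and they overlapped. The log2 fold change was 0.14 (SE 0.0950, 95% interval −0.06 to 0.34; edgeR, adjusted p = 0.412).

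Per length, *Cacng3* was the most abundant of the 3 TARP genes in all 6 libraries, with 51.2% ± 0.694 of their sum in shCtrl and 51.3% ± 0.343 in sh*Pla2g4e* (SD, n = 3). The share of *Cacng8* was 23.1%, 23.3% and 25.1% in shCtrl and 27.6%, 26.0% and 27.6% in sh*Pla2g4e*. The share of *Cacng2* was 24.9%, 26.0% and 24.0% in shCtrl and 21.2%, 22.3% and 21.4% in sh*Pla2g4e*. Neither share overlapped between the groups, and the ratio of *Cacng8* to *Cacng2* went from 0.926, 0.897 and 1.04 to 1.31, 1.17 and 1.29. These ratios were chosen after the values were seen and are given without a test.

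Of the 2 cornichon genes, *Cnih2* was read higher and *Cnih3* lower in sh*Pla2g4e*, and neither was a DEG without the block. *Cnih2* (chromosome 19, 5142896 to 5148549, minus strand) encodes a cornichon that leads AMPA receptors out of the endoplasmic reticulum and slows their deactivation. It was read at 164, 168 and 173 CPM in shCtrl and at 206, 182 and 211 CPM in sh*Pla2g4e*. All sh*Pla2g4e* libraries were above all shCtrl libraries, and replicate 2 was the nearest to them. The mean went from 169 ± 4.69 to 199.7 ± 15.25 CPM (SD, n = 3).

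The log2 fold change of *Cnih2* was 0.24 (SE 0.0803, 95% interval 0.07 to 0.41). It missed the threshold with edgeR (adjusted p = 0.0574), with limma after voom (adjusted p = 0.0489) and with DESeq2 (adjusted p = 0.0308), and passed only with the block among the alternatives run. Per numbered pair the log2 ratios were 0.33, 0.12 and 0.28.

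*Cnih3* (chromosome 1, 181180193 to 181288206, plus strand) encodes its closest homolog, with a like action on the receptor. Its CPM was 129, 116 and 107 in shCtrl and 108, 86.4 and 102 in sh*Pla2g4e*. The groups overlapped, because sh*Pla2g4e* replicate 1 lay above shCtrl replicate 3, but within each numbered pair sh*Pla2g4e* was lower (log2 ratios −0.25, −0.43 and −0.07). The means were 117 ± 11.1 and 98.8 ± 11.3 CPM (SD, n = 3), with a log2 fold change of −0.25 (95% interval −0.45 to −0.04; edgeR, adjusted p = 0.115).

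*Cnih2* was read more than *Cnih3* per length in every library, at 71.9%, 74.4% and 76.6% of their sum in shCtrl and at 79.2%, 80.9% and 80.7% in sh*Pla2g4e*. The ratio of *Cnih2* to *Cnih3* was 2.56, 2.91 and 3.27 in shCtrl and 3.82, 4.24 and 4.17 in sh*Pla2g4e*. The lowest sh*Pla2g4e* ratio lay above the highest shCtrl ratio, and again no test was made. The sum of both genes per length overlapped between the groups, at 165 to 167 CPM per kb in shCtrl and 165 to 191 CPM per kb in sh*Pla2g4e*.

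*Shisa9* (chromosome 16, 11801977 to 12088766, plus strand) encodes CKAMP44, which alters desensitization of AMPA receptors and short-term plasticity. It was read at 105.5, 99.1 and 98.9 CPM in shCtrl and at 114, 118 and 104.0 CPM in sh*Pla2g4e*. Only sh*Pla2g4e* replicate 3 fell below a shCtrl library, replicate 1. The log2 fold change was 0.15 (SE 0.0798, 95% interval −0.02 to 0.32; edgeR, adjusted p = 0.265).

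**Figure D3:**
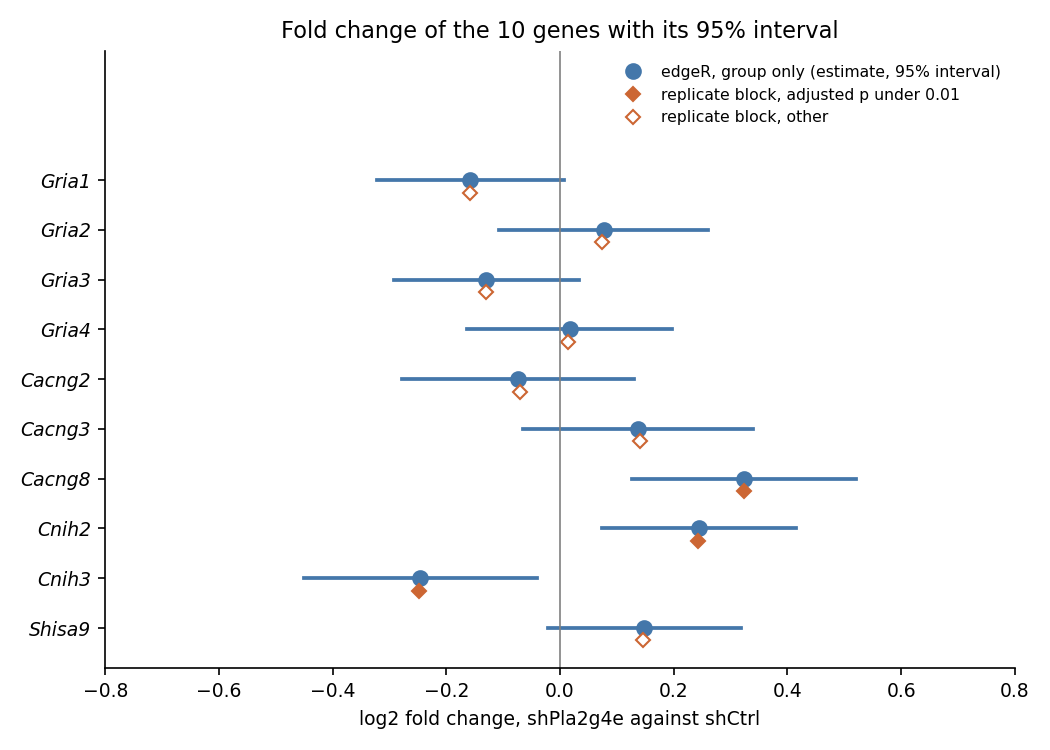
Log2 fold change of sh*Pla2g4e* against shCtrl for the 10 genes (x axis), with circles and lines for the edgeR estimate and its 95% interval and diamonds for the estimate with the replicate block, filled where its adjusted p was under 0.01. The intervals of *Cacng8*, *Cnih2* and *Cnih3* leave out 0, and these 3 genes carry the filled diamonds.

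The order of the 10 genes per length in shCtrl began with *Cnih2* (123 ± 3.43 CPM per kb), apart from the rest. *Gria2* (66.2 ± 3.79) and *Gria1* (59.6 ± 2.71) followed with overlapping ranges, and then *Cnih3* (42.6 ± 4.05) and *Cacng3* (35.3 ± 4.62), which overlapped as well. *Shisa9* (19.3 ± 0.716), *Gria4* (18.7 ± 0.583), *Cacng2* (17.2 ± 2.21) and *Cacng8* (16.4 ± 1.42) overlapped each with the next, and *Gria3* (13.4 ± 0.508) was the lowest (all SD, n = 3). In sh*Pla2g4e*, *Gria2* (69.9 ± 6.21) and *Gria1* (53.4 ± 2.37) no longer overlapped, and *Cacng3* (38.8 ± 2.44) overlapped with *Cnih3* (35.9 ± 4.10). The mean of *Cacng8* (20.5 ± 1.28) came above that of *Gria4* (18.9 ± 1.82), but their ranges overlapped. With the length of the longest coding transcript, *Gria3* was the sixth of the shCtrl order and *Gria2* was apart from *Gria1* in both groups. Per length of the merged exons, the 6 auxiliary genes together were 1.65, 1.64 and 1.53 times the 4 pore subunits in shCtrl. In sh*Pla2g4e* they were 1.81, 1.82 and 1.79 times the pore subunits, with no overlap and no test. This ratio depends on the exon length that is used, and *Cnih2* weighs most in the auxiliary sum.

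The genes with the profile most like that of each pore subunit were sought among the other 10907 abundant genes. The measure was the root mean square distance between log2 CPM profiles over the 6 libraries, each centred on its own mean. *Nedd4l* (distance 0.0145) and *Dvl3* (0.0174) were nearest to *Gria1*, and *Csgalnact2* (0.0174) and *Txndc12* (0.0252) to *Gria2*. *Hipk1* (0.0234) and *Gm1976* (0.0248) were nearest to *Gria3*, and *Nap1l1* (0.0277) and *Slitrk2* (0.0281) to *Gria4*. None of these 8 genes was a DEG.

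A wider list of 67 genes that work with the AMPA receptor was read in the same fit. In it 6 genes were down-regulated and 3 up-regulated, 13.4% against 6.49% of all genes tested and 10.9% of the more abundant ones. The median log2 fold change of the list was −0.06, with 34 genes below 0 and 33 above. With the replicate block, 20 genes were down-regulated and 9 up-regulated, where the block called 15.5% of all genes tested (9.02% down-regulated, 6.5% up-regulated) and 26% of the more abundant ones. By group these were 5 and 1 of the other auxiliary proteins, 2 and 1 of the assembly genes, 7 and 1 of the scaffold and trafficking genes, 5 and 1 of the kinases and phosphatases, and 1 and 5 of the extracellular and editing genes.

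Other auxiliary proteins held 2 down-regulated and 1 up-regulated of 13 genes, with a median log2 fold change of 0.02. *Gsg1l*, a claudin-like auxiliary subunit that binds AMPA receptors, was read at 17.5, 22.0 and 17.8 CPM in shCtrl and at 29.9, 34.5 and 29.1 CPM in sh*Pla2g4e*. It rose by 0.71 on the log2 scale (SE 0.117; edgeR, adjusted p = 7.31e-04), the largest rise among the 10 AMPA receptor genes and the 67 of the wider list. *Syndig1*, a transmembrane protein of developing excitatory synapses, was read at 43.7, 40.0 and 41.4 CPM in shCtrl and fell to 25.6, 18.9 and 25.8 CPM in sh*Pla2g4e* (log2 fold change −0.83, SE 0.116; edgeR, adjusted p = 1.80e-04).

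For both genes the libraries of the groups did not overlap. *Syndig1* shares 16.5% of its exon bases with a gene on the opposite strand, and the counting used no strand. *Olfm1*, a secreted olfactomedin found in AMPA receptor complexes, was read at 630, 601 and 517 CPM in shCtrl and fell to 414, 376 and 362 CPM (log2 fold change −0.60, SE 0.0901; edgeR, adjusted p = 3.39e-04). The other TARP genes, *Cacng4*, *Cacng5* and *Cacng7*, were no DEGs, with log2 fold changes of −0.14, −0.40 and 0.06. With the block *Cacng5* was down-regulated (edgeR, adjusted p = 5.29e-04).

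Of 8 genes of receptor assembly and export, 1 was down-regulated. *Cnih1*, the cornichon that exports cargo from the endoplasmic reticulum in many tissues, was read at 50.7, 47.5 and 60.9 CPM in shCtrl and fell to 36.6, 36.7 and 37.3 CPM (log2 fold change −0.53, SE 0.0982; edgeR, adjusted p = 0.00194). Leaving out sh*Pla2g4e* replicate 1 brought its adjusted p to 0.0121, while 12.1% of its 50-base stretches occur in other genes and an opposite-strand gene covers 14.1% of its exons. *Frrs1l*, an assembly factor of the endoplasmic reticulum, was no DEG at a log2 fold change of −0.34 (edgeR, adjusted p = 0.0230), nor was *Porcn*, which binds AMPA receptors there, at 0.31 (adjusted p = 0.0159). Both passed with the block (edgeR, adjusted p = 3.96e-05 and 4.74e-04).

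Scaffold and trafficking genes held 2 down-regulated and 1 up-regulated of 22. *Akap5*, the anchor of kinases and calcineurin at the postsynaptic density, was read at 77.0, 72.3 and 69.9 CPM in shCtrl and fell to 47.5, 36.5 and 51.2 CPM (log2 fold change −0.70, SE 0.108; edgeR, adjusted p = 4.41e-04). *Gripap1*, a partner of GRIP that acts in recycling endosomes, fell from 103, 103 and 100.1 CPM to 78.2, 71.4 and 77.5 CPM (log2 fold change −0.43, SE 0.0773; edgeR, adjusted p = 0.00145), and its adjusted p was 0.0132 without shCtrl replicate 2. *Sdcbp*, the PDZ protein syntenin, rose from 138, 118 and 127 CPM to 180.1, 185 and 187 CPM (log2 fold change 0.53, SE 0.0806; edgeR, adjusted p = 4.05e-04). In all 3 genes the libraries of the groups did not overlap.

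The MAGUK scaffolds *Dlg1*, *Dlg2*, *Dlg3* and *Dlg4* of this list were no DEGs, with log2 fold changes between −0.20 (*Dlg4*) and 0.19 (*Dlg3*). The receptor-binding proteins *Pick1* and *Grip1* had log2 fold changes of 0.08 and −0.19 and were no DEGs either. With the block, *Dlg4* was down-regulated (edgeR, adjusted p = 0.00928), as were *Nsf* and *Grip2* (adjusted p = 1.81e-05 and 9.18e-04).

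Among 12 kinase and phosphatase genes, 1 was down-regulated. *Camk2b*, the beta subunit of CaMKII, was read at 855, 841 and 796 CPM in shCtrl and fell to 653, 599 and 656 CPM (log2 fold change −0.38, SE 0.0782; edgeR, adjusted p = 0.00380). That call was lost without shCtrl replicate 1 or 2 or sh*Pla2g4e* replicate 1 or 2, each left out in turn, with an adjusted p of up to 0.0371. *Camk2a*, the alpha subunit, had a log2 fold change of 0.02 (edgeR, adjusted p = 0.945) and overlapping libraries.

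Extracellular organizers and RNA-editing enzymes held 1 up-regulated gene of 12. *Lrrtm2*, a postsynaptic adhesion protein, rose from 90.1, 93.8 and 85.6 CPM to 129, 121 and 112 CPM (log2 fold change 0.43, SE 0.0817; edgeR, adjusted p = 0.00222), and lost the call without shCtrl replicate 2 or sh*Pla2g4e* replicate 1, at an adjusted p of up to 0.0196. The neuronal pentraxins *Nptx1* and *Nptx2*, which cluster AMPA receptors from outside the cell, were no DEGs at log2 fold changes of 0.39 and 0.50 (edgeR, adjusted p = 0.0211 and 0.0165). Both had every sh*Pla2g4e* library above every shCtrl library and passed with the block (edgeR, adjusted p = 5.01e-06 and 5.10e-09). *Adarb1*, the enzyme that edits *Gria2* RNA, had a log2 fold change of 0.18 (edgeR, adjusted p = 0.208).

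**Figure D4:**
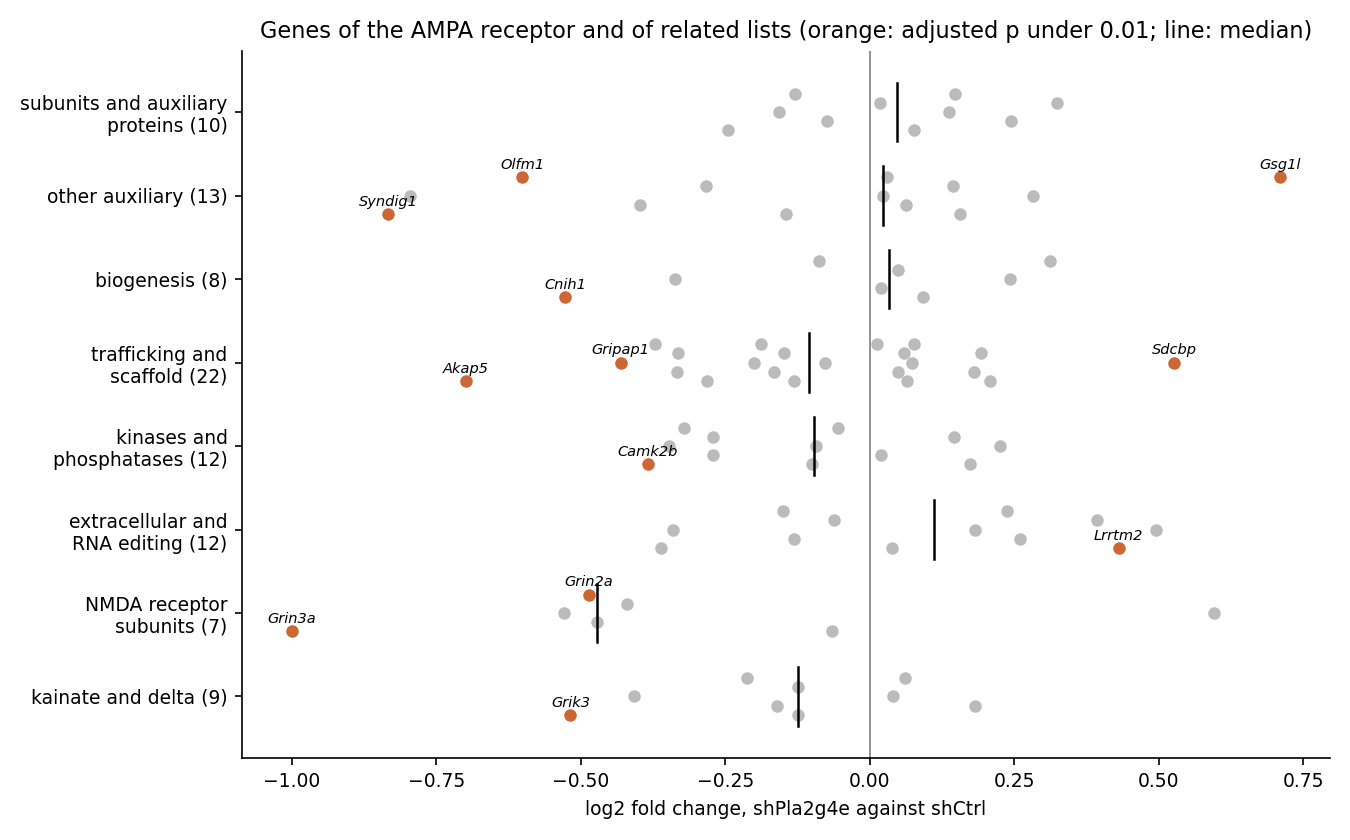
Log2 fold change of sh*Pla2g4e* against shCtrl (x axis) for each gene (point) of the AMPA receptor genes and of the related lists (rows), with DEGs in orange and a line at the median of each list. Without the replicate block the 10 AMPA receptor genes hold no DEG, and the other lists, of 7 to 22 genes, hold between 1 and 3 each. The share over all genes tested was 6.49%, and 10.9% over the more abundant ones. With the block, which is not drawn, 1 of the 10 genes was down-regulated and 2 were up-regulated.

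The hairpin is shown because a short RNA can lower transcripts that pair with its seed, bases 2 to 8 of the guide strand. The mRNA target in *Pla2g4e* and the guide are written 5′ to 3′, with the seed of the guide in capitals.

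sh2 target: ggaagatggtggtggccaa

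sh2 guide: tTGGCCACcaccatcttcc

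Paired with that seed is the motif GTGGCCA in an mRNA, searched on the strand of the transcript alone. None of the 10 AMPA receptor genes held it in the 3′ UTR of an annotated coding transcript or in the coding sequence of the longest coding transcript. The motif stood in the 3′ UTR of 13.4% of all tested genes with one, and of 13.1% of those within the length range of the 10 genes (43 to 7268 bases). That range held 15322 of the 15656 tested genes with a 3′ UTR, so that it hardly matched for length. The motif stood in 43% of the 3′ UTRs of down-regulated and in 7.1% of those of up-regulated genes, which were not matched for length. The longest run shared with the sh2 target was 7 to 10 bases in the 10 genes and 19 bases in *Pla2g4e*.

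In the wider list, 15 of 67 genes held the motif in a 3′ UTR when, as for the shares above, only the longest coding transcript of a gene was read, among them 3 of the 6 down-regulated and none of the 3 up-regulated genes. These 3 sites are written with 8 bases on either side, in the sense of the mRNA and with the motif in capitals, beside the site in the coding sequence of *Pla2g4e* that the hairpin targets. They come from the GRCm38 genome with GENCODE vM21 models.

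*Pla2g4e*, exon 11, coding, motif at chr2:120182754-120182760, minus strand: agatggtgGTGGCCAagacacta

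*Akap5*, exon 2, 3′ UTR, motif at chr12:76332303-76332309, plus strand: tctgctatGTGGCCAaatgatag

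*Cnih1*, exon 5, 3′ UTR, motif at chr14:46775776-46775782, minus strand: ctaatccaGTGGCCAaggtatta

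*Gripap1*, exon 25, 3′ UTR, motif at chrX:7820526-7820532, plus strand: aagactatGTGGCCAaaatacca

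*Syndig1* held the motif in its coding sequence, in exon 3 and again in exon 5. *Olfm1* and *Camk2b*, the other down-regulated genes, held none in either place. Whether the motif had a part in the fall of any of these genes was not tested.

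Other ionotropic glutamate receptors were read beside the AMPA receptor genes. Of 7 NMDA receptor subunit genes, 2 were down-regulated and the median log2 fold change was −0.47, beside 0.05 for the AMPA receptor genes. Of all genes tested 4% were down-regulated, and 10.9% of the more abundant ones were DEGs in either direction. *Grin3a*, the GluN3A subunit of immature synapses, fell from 58.7, 50.2 and 49.1 CPM to 28.8, 25.2 and 24.9 CPM (log2 fold change −1.0003, SE 0.1005; edgeR, adjusted p = 9.16e-06). *Grin2a* fell from 97.5, 98.1 and 89.2 CPM to 74.7, 62.6 and 65.9 CPM (log2 fold change −0.49, SE 0.0869; edgeR, adjusted p = 0.00142), with an adjusted p of 0.0142 without shCtrl replicate 2, and 14.3% of its 50-base stretches occur in other genes. *Grin1*, the obligatory subunit, had a log2 fold change of −0.07 (edgeR, adjusted p = 0.723). Of 9 kainate and delta receptor genes with their partners, 1 was down-regulated, *Grik3*, at a log2 fold change of −0.52 (edgeR, adjusted p = 5.18e-04). With the block, 4 NMDA receptor and 2 kainate receptor genes were down-regulated, against 9.02% of all genes tested and 1826 of the 10908 more abundant ones. The difference between these lists and the AMPA receptor genes was not tested.

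The seed motif of sh2 was counted in the longest coding transcripts of these receptors as well. *Grin3a* held it at 2 sites in the 3′ UTR and at 1 site in the coding sequence, and *Grin2b*, no DEG at a log2 fold change of −0.42 (edgeR, adjusted p = 0.0210) but down-regulated with the block (adjusted p = 1.35e-07), at 2 sites in each. *Grin2a* held none in the 3′ UTR and 2 in the coding sequence. *Grin2c* and *Grin2d* held 3 each and *Grin3b* held 1, all in the coding sequence, and *Grin1* held none. In the kainate and delta list, *Neto1* held 1 site in the 3′ UTR, *Grid1* 2 and *Grik4* 1 in the coding sequence, and *Grik3* and the other 5 genes held none. The part of these sites in the values of the receptors was not tested.

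AMPA receptor genes are expressed in excitatory and inhibitory neurons and partly in glia, and markers of these cells were read in the same libraries. The 8 markers of glutamatergic neurons summed to 1700 to 2073 CPM in shCtrl and 1185 to 1307 CPM in sh*Pla2g4e*, with 3 down-regulated and 1 up-regulated. The 10 GABAergic markers summed to 1213 to 1311 and 1019 to 1152 CPM, with 3 down-regulated and 2 up-regulated, and the 8 pan-neuronal markers to 5227 to 5657 and 4739 to 5195 CPM, with 2 down-regulated. On the same TMM scale all genes tested summed to 1001400 to 1052000 CPM in shCtrl and 964210 to 985480 CPM in sh*Pla2g4e*. A lower marker sum is therefore in part a matter of scaling. The 8 astrocyte markers, with 3 down-regulated, ranged from 2826 to 3630 and from 1899 to 3082 CPM. The 8 oligodendrocyte-lineage markers (516 to 585 and 536 to 640 CPM) and the 5 mural and endothelial markers tested (20.7 to 27.5 and 20.7 to 29.6 CPM) held no DEG without the block, and no library held 6 reads of the microglia marker *Tmem119* or of the endothelial marker *Cldn5*. The glutamatergic markers did not move as one. *Slc17a7*, a vesicular glutamate transporter, fell from 745 ± 97.0 to 299.6 ± 11.2 CPM (SD, n = 3; edgeR, adjusted p = 3.69e-07), and *Nrgn*, a calmodulin-binding protein, fell from 740.5 ± 57.9 to 512 ± 61.2 CPM (adjusted p = 0.00148). These 2 genes were the most abundant of the list in shCtrl and weigh most in its sum. *Neurod6* fell as well, by 0.47 on the log2 scale (edgeR, adjusted p = 0.00204), while *Slc17a6*, another vesicular glutamate transporter, rose from 47.3 ± 12.6 to 88.3 ± 23.8 CPM (adjusted p = 0.00388). *Neurod2*, *Tbr1* and *Emx1* were no DEGs, with log2 fold changes of 0.35, 0.08 and −0.32, and with the block *Neurod2* was up-regulated (edgeR, adjusted p = 1.64e-04). With the block the down-regulated and up-regulated markers were 4 and 2 of the glutamatergic list, 4 and 2 of the GABAergic, 3 and 1 of the pan-neuronal, and 6 and 1 of the astrocyte list. The block called 9.02% and 6.5% of all genes tested, and 1826 and 1009 of the 10908 more abundant ones. *Olig2* of the oligodendrocyte lineage was down-regulated with the block (edgeR, adjusted p = 5.28e-04) and *Kdr* of the endothelial markers up-regulated (adjusted p = 8.91e-05), while no microglia marker passed. The summed CPM of the 10 AMPA receptor genes was 2175 to 2318 in shCtrl and 2165 to 2407 in sh*Pla2g4e*. The part of these markers in the values of the AMPA receptor genes was not tested.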

How the data were processed

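The authors aligned the reads with STAR 2.7.0d and deposited raw counts per gene and library, made with featureCounts 1.6.0 on the merged exons of GENCODE vM28 (GRCm39), with no strand or read-pair option in the file headers. The methods of the study name mm10 and GENCODE M18 in place of these. Symbols came from GENCODE vM21, which matched 52081 of 55357 gene identifiers. Exon lengths are those deposited with the counts.

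A gene was kept if any library held 6 or more of its reads, and the counts of the 21876 kept genes were fitted with edgeR 4.0.16 in R 4.3.3 (TMM, estimateDisp, glmQLFit, glmQLFTest). P-values were adjusted by Benjamini-Hochberg over all of them, with a threshold of 0.01, and standard errors and 95% intervals were taken from the F statistic. limma 3.58.1 after voom, the test of the study, and DESeq2 1.42.0 were run as alternatives, together with other scalings and filters, a block for the replicate number, a robust fit, each library left out, and a looser threshold (0.05). DESeq2 gave no adjusted p for 5514 genes. The fit was tested on simulated data.

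Libraries of the same number deviated together (correlations of 0.392, 0.189 and 0.461 over 10908 genes, against −0.393 to 0.108 between numbers). The numbers in the labels were therefore read as pairs, and blocked values stand where they change a call. No pair of libraries differed by less than the sampling noise.

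The members, the lists and the rule for named genes were chosen with earlier results of these data known. Named are the 10 genes, *Pla2g4e*, up to 2 DEGs of smallest p per direction in each list, and the 2 nearest profiles of each pore subunit. Other genes of the lists, and the ratios between genes, were picked after their values were seen. The search for the seed motif and the transcript length as an alternative were added after the data were seen.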

Additional observations from a re-analysis of the deposited data

How the results depend on the processing

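Each of the 10 AMPA receptor genes was recomputed under 17 alternatives. Of these 170 fits, 160 kept the direction and the side of the threshold. In 5 a gene passed that had not, and in 5 the direction reversed. The log2 fold change of *Gria4* (0.02) ran from −0.0294 to 0.0948 when a library was left out, below 0 without shCtrl replicate 1, sh*Pla2g4e* replicate 1 or sh*Pla2g4e* replicate 3. That of *Cacng2* (−0.07) was 0.00296 with library size alone and ran from −0.165 to 0.0217 when a library was left out, above 0 without shCtrl replicate 1. The counts of DEGs among the 10 genes, 0 down-regulated and 0 up-regulated, became 1 and 2 with the replicate block. They became 0 and 1 with library size alone and with a threshold of 0.05, and stayed at 0 in each fit that left out a library. Among the 67 associated genes, 6 down-regulated and 3 up-regulated became 20 and 9 with the replicate block, 15 and 6 with no filter, 14 and 6 with DESeq2, 16 and 6 at the threshold of 0.05, and 6 and 6 with library size alone. Leaving out a library gave 4 to 11 (11 without shCtrl replicate 3) and 2 to 5 (5 without sh*Pla2g4e* replicate 3, 2 without shCtrl replicate 2 or sh*Pla2g4e* replicate 1). Among all genes, 876 and 543 became 1973 and 1422 with the replicate block, 1360 and 989 with no filter, 1599 and 1214 at the threshold of 0.05, and 449 to 932 and 246 to 681 when a library was left out, both lowest without shCtrl replicate 2. The down-regulated count was also under 600 without shCtrl replicate 1 (543) or sh*Pla2g4e* replicate 1 (548) or 2 (570), and the up-regulated count was 306 and 361 without sh*Pla2g4e* replicate 1 and 2. The cause was not tested. The adjusted p of *Cacng8* ran from 0.0206 to 0.146 over the fits that left out a library, that of *Cnih2* from 0.0321 to 0.189 and that of *Cnih3* from 0.0620 to 0.382. With 3 libraries a group, the SEs of 0.0768 to 0.0968 set the width of the intervals given.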
